A study of Homo sapiens with 45 samples.

Results

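CTCF occupancy was compared between HEK293T cells, a human embryonic kidney line, treated for 72 h with the solvent DMSO and with 30 µM BPK25. Each treatment had 3 CTCF ChIP-seq libraries, which the authors joined into 1 peak list before deposit. The members are the 17815 regions of these lists, 17440 for DMSO and 375 for BPK25, out of 53743 regions in the 12 lists of the series. A region is a distinct stretch of hg19 with its start and end. A DMSO region that overlapped a BPK25 region by 1 bp or more is called kept, one that did not is called lost, and a BPK25 region without a DMSO region is called newly listed. Lost therefore means not listed under BPK25. The labels name no edit in the cells of either group, although the growth protocol also speaks of edited derivatives of the line. BPK25 is known from other work as a compound that lowers the amount of subunits of the NuRD complex, and the labels do not state its action. Overlaps are also given with the MBD2, MBD3 and TET1 lists of both treatments and with lists from cells given 0.5 mM IAA, an auxin, for 72 h, whose target the labels do not name. No source used here says whether the 3 libraries of a group are separate cultures.

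CTCF is a zinc finger protein that binds a long DNA motif at insulators and at the anchors of chromatin loops, where it stops cohesin. NuRD joins histone deacetylases and a nucleosome remodeller, and MBD2 and MBD3 are its alternative methyl-CpG-binding-domain subunits. TET1 oxidises methylated cytosine, and CTCF binding at many sites is sensitive to methylation. By its title the study concerns NuRD at CTCF sites, and the comparison here addresses which CTCF regions remained listed once the cells had been given BPK25.

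Of the 17440 DMSO CTCF regions, 222 were kept (1.27%, 95% Wilson interval 1.12 to 1.45) and 17218 were lost. On chromosomes 1 to 22 and X, 151 of 17252 regions were kept, or 0.875%. Read from the other side, 223 of the 375 BPK25 regions lay at a DMSO region (59.5%, 54.4 to 64.3), and 152 were newly listed. A single DMSO region met a pair of BPK25 regions, and no BPK25 region met more than 1 DMSO region. The overlaps were seldom marginal. The shortest overlap was 40 bp, on chromosome 6 at the DMSO region from 160112244 to 160112558, and the next were 76 and 129 bp. The lost regions nearest to a BPK25 region lay 187, 197 and 300 bp away. The intervals cover counting over regions only. With 1 pooled list per treatment, no value has a replicate error and no difference between the treatments was tested.

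The lists differed in depth, which touches every share given here. The genome-wide background recovered from the peak values, called the floor, was 4.35 fragments in the DMSO list and 0.256 in the BPK25 list, or 5.89% of the DMSO value. At the floor, a BPK25 summit needed 5 fragments to be listed, which corresponds to 85 fragments in DMSO. The median DMSO pileup was 38 fragments and the median local background 7.89. When pileup and background were scaled by the ratio of the floors, 140 DMSO regions (0.803%, 0.681 to 0.946) would still have passed the least significance found in the BPK25 list. Of these 140 regions, 48 were kept (34.3%, 26.9 to 42.5). Among the 17266 that would not have passed, 157 were kept (0.909%). For the 34 DMSO regions too strong for the recovery of a pileup, 17 were kept. With the scaled pileup rounded up to a whole fragment instead of down, 66 of 286 were kept (23.1%, 18.6 to 28.3). The scaling gives an expected pileup and holds no counting noise, so a region that would have passed by it could still be missed at BPK25 depth. The shares among such regions therefore do not measure loss apart from depth. The kept share of 1.27% is thus a share at unequal depth.

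Measured the same way against their own BPK25 lists, DMSO regions of MBD3 that would have passed were kept in 54 of 156 cases (34.6%, 27.6 to 42.4), those of TET1 in 223 of 963 (23.2%, 20.6 to 25.9), and those of MBD2 in 172 of 12279 (1.40%, 1.21 to 1.62). The CTCF share of 34.3% lay beside that of MBD3. The MBD2 list under BPK25 was the deepest of the 4, so far weaker DMSO regions entered its count.

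Kept regions stood mostly on raised local background. A background of at most 3 times the floor of the list is called low here, and a higher one raised. In DMSO, 89.4% of all regions had a low background, but of the kept ones 48 of 222 did (21.6%, 16.7 to 27.5). Of the DMSO regions with a low background, 0.308% (0.232 to 0.408) were kept, against 8.63% (7.42 to 10.0) of those with a raised background. The split was also present among the regions that would have passed at BPK25 depth, where 10 of 52 with a low background (19.2%, 10.8 to 31.9) and 38 of 88 with a raised one (43.2%, 33.3 to 53.6) were kept. Rounding up gave 12 of 151 (7.95%) and 54 of 135 (40.0%). On chromosomes 1 to 22 and X without the runs of neighbouring regions described below, the shares were 10 of 52 and 12 of 45 (26.7%, 16.0 to 41.0), with intervals that overlap widely. On low background, the share rose with the DMSO pileup, from 0.123% at up to 30 fragments and 0.281% at 31 to 60, to 0.386% at 61 to 100 and 17.7% (10.2 to 29.0) above 100 fragments.

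**Figure D1:**
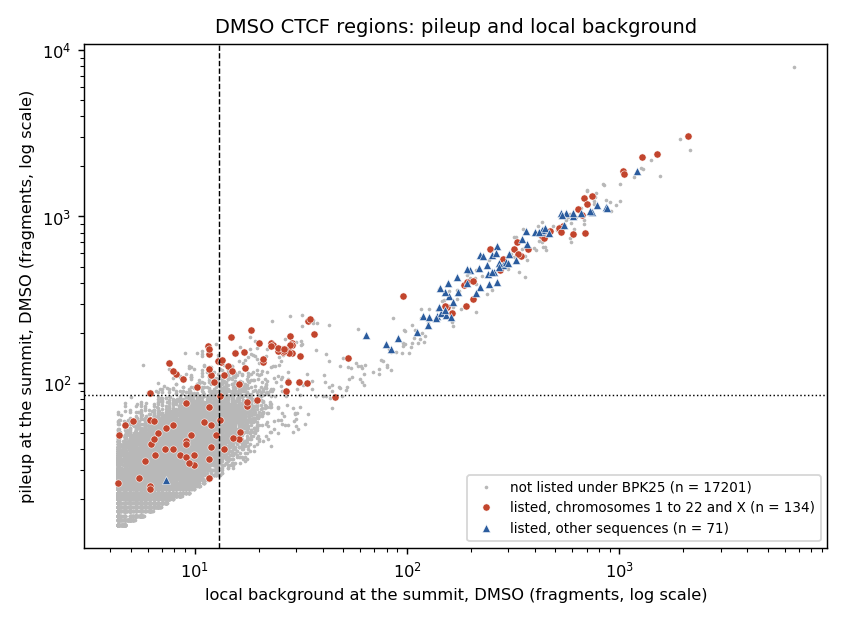
Pileup against local background at the summit of each DMSO CTCF region with recovered values, in fragments on log scales. Grey points were not listed under BPK25, circles were listed on chromosomes 1 to 22 and X, and triangles were listed on other sequences; the dashed line is 3 times the floor and the dotted line is 85 fragments. Of the 205 listed regions, 48 had a low background, and many of these lie within the cloud. Among the 48, 27 had 31 to 60 fragments and 11 had over 100. The 157 on raised background reach along the tail of high background, where most triangles lie.

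By position, the kept regions fell into a few kinds of place. Sequences outside chromosomes 1 to 22 and X held 188 DMSO regions, of which 71 were kept (37.8%, 31.1 to 44.9). All but 1 of these came from a pair of contigs. On 9_gl000199_random 52 of 69 regions were kept, on Un_gl000226 18 of 18, and on chromosome Y 1 of 14. The other unplaced and alternate sequences together kept none of their regions. Kept regions outside the main chromosomes had a median DMSO background of 251.9 fragments and a median DMSO fold enrichment of 1.89. For 56 of these 71 the BPK25 region also met a BPK25 MBD3 region, and for 27 an IAA CTCF region. Whether listed regions on such high background reflect CTCF binding was not tested. Fold is the value written by the authors' caller, read here as pileup plus 1 over local background plus 1. The added 1 weighs more where the background is small, as in much of the BPK25 list. Folds of the treatments are therefore not on an equal scale.

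The widest stretch of each chromosome without a region of any list was used as a landmark, since no hg19 annotation of centromeres was used here. Within 1 Mb of such a stretch lay 50 of the 151 kept regions (33.1%, 26.1 to 41.0), against 301 of the 17101 lost ones (1.76%, 1.57 to 1.97). These 50 kept regions had a median background of 369.6 fragments and a median DMSO fold of 1.80. For 44 of them the BPK25 region also met a BPK25 MBD3 region, and for 32 an IAA CTCF region. Here too, whether they reflect CTCF binding was not tested. A chromosome end was likewise a stand-in, taken as position 1 or the furthest region end of any list on that chromosome. Within 1 Mb of a chromosome end, 13 of the 151 kept regions were found (8.61%, 5.10 to 14.2), 331 of the lost ones (1.94%, 1.74 to 2.15) and 9 of 146 newly listed ones (6.16%, 3.28 to 11.3). Of the 13 kept regions near chromosome ends, 8 had a low background. Near the widest stretches 2 of 50 had one, and outside the main chromosomes 1 of 71. Away from these places and from runs of neighbouring regions described next, 64 of 16442 DMSO regions were kept (0.389%, 0.305 to 0.497). Their median DMSO fold was 6.02, against 4.34 for the lost regions there. A low background was found at 36 of these 64, so the chromosome ends did not stand apart in this.

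Chromosome X kept 28 of 743 DMSO regions (3.77%) and chromosome 19 kept 15 of 633 (2.37%), the highest shares of the main chromosomes. The largest number of DMSO regions was on chromosome 1, which kept 13 of 1757 (0.740%). No region was kept of 266 on chromosome 18, which allows a share of up to 1.13%, nor of 380 on chromosome 22, which allows up to 0.789%. Of the kept regions, 26 on chromosome X and 12 on chromosome 19 lay in runs of closely spaced regions.

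Kept regions had other CTCF regions close by. Another DMSO CTCF region lay within 10 kb of 100 of the 151 kept regions (66.2%, 58.4 to 73.3), against 22.8% (22.1 to 23.4) of the lost ones. The median distance to the nearest other DMSO CTCF region was 2.81 kb for kept and 34.8 kb for lost regions. With no neighbour within 10 kb, 51 of 13259 regions were kept (0.385%), with 1 neighbour 20 of 3100 (0.645%), with 2 or 3 neighbours 20 of 637 (3.14%), and with 4 or more 60 of 256 (23.4%, 18.7 to 29.0). Local background moved with the number of neighbours: it was raised at 8.15% of regions without a neighbour and at 64.8% of those with 4 or more. On low background, the kept share was 0.263% without a neighbour, 0.400% with 1, 0.390% with 2 or 3, and 2.86% (0.787 to 9.83) with 4 or more, the last from 2 of 70 regions. A neighbour within 10 kb was found for 15 of the 47 kept regions of low background (31.9%, 20.4 to 46.2) and for 21.5% of the lost ones, an interval that includes the value of the lost regions. Counted only among regions of low background in their own list, the shares were 21.6% for kept and 19.9% for lost regions. Raised background gave 1.48%, 2.31%, 12.6% and 28.9% for the same classes of neighbours. The part of local background in the relation with neighbours was not tested further.

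**Figure D2:**
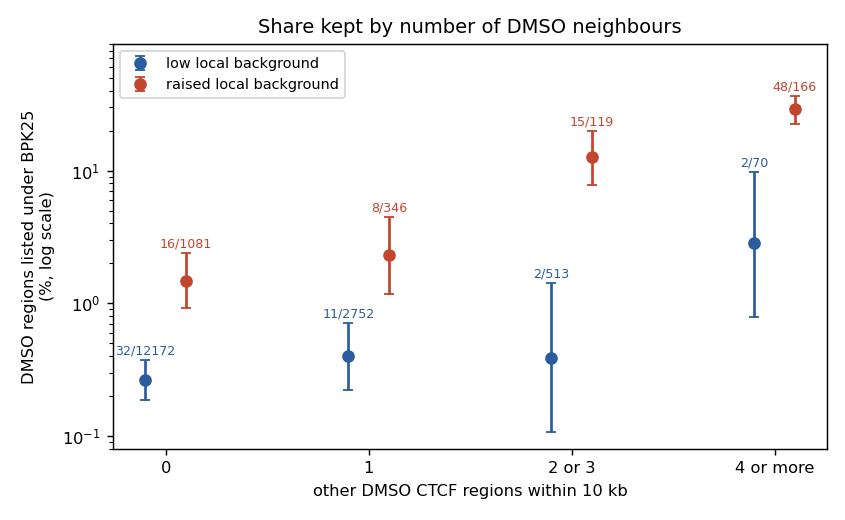
Share of DMSO CTCF regions on chromosomes 1 to 22 and X that were listed under BPK25 (%, log scale) by the number of other DMSO CTCF regions within 10 kb, for regions of low and raised local background. Points are shares with 95% Wilson intervals and kept over all regions beside them; the raised class goes from 1.48% to 28.9%, and the low class from 0.263% to 2.86%, with wide intervals at 2 or more neighbours.

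Runs of 5 or more DMSO CTCF regions with starts at most 6 kb apart were collected on chromosomes 1 to 22 and X. There were 29 such runs with 258 regions, and these held 65 of the 151 kept regions (43.0%, 35.4 to 51.0) but 1.13% of the lost ones. Without the runs, 40.7% of kept regions had a neighbour within 10 kb, against 21.9% of lost ones. In 14 runs near the widest stretch of their chromosome, 41 of 143 regions were kept. The remaining 15 runs held 115 regions with 24 kept. Among these, 11 runs with 73 regions kept none, which allows a share of up to 4.11%, and none of their 73 regions would have passed at BPK25 depth. The 24 kept regions outside the first 14 runs lay in 1 run on chromosome X, with 12, and in 3 runs on chromosome 19, with 9, 2 and 1.

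The run on chromosome X, from 114960394 to 115005191, held 15 DMSO regions, of which 12 were kept. Its regions followed each other at a nearly constant step, with a median of 2988.5 bp between starts and an interquartile range of 28 bp, except for a last step of 5298 bp. Chromosome X carries DXZ4, a tandem repeat known for binding CTCF in its units, but whether this run is DXZ4 was not checked. The DMSO folds ran from 1.99 to 7.20 with a median of 5.82, and the BPK25 folds at the 12 kept regions from 5.63 to 8.52 with a median of 7.22. BPK25 gave the higher fold at 10 of the 12. In fragments, the median pileup was 156 in DMSO over the 15 regions and 24 under BPK25 over the 12. For each kept region, the BPK25 pileup was 11.8% to 20.2% of the DMSO pileup with a median of 15.6%, while the local background was at 10.1% of its DMSO value. Summits moved by -7 to 33 bp. The lost members were the fourth region, with a DMSO fold of 7.20, and the last 2 of the run, with folds of 5.52 and 1.99. At the fourth region the BPK25 MBD3 list had a region although the CTCF list had none. Of the 15 regions, 14 were in each of the DMSO lists of MBD2, MBD3 and TET1, the last region of the run being in no other list. Under BPK25 the MBD2 list had 1 of them, that of MBD3 4 and that of TET1 1.

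The run on chromosome 19, from 50594018 to 50642823, held 12 DMSO regions with 9 kept. Its steps took values near 3 and near 5 kb, with a median of 5333 bp, besides a first step of 1767 bp. The kept regions had BPK25 folds of 6.88 to 10.5 with a median of 8.66, and each was above the DMSO fold at the same place. DMSO folds of the whole run went from 3.46 to 7.31 with a median of 5.82. Pileups were 17 to 29 fragments under BPK25. They came to 10.1% to 15.4% of the DMSO pileup, with a median of 12.6%, while the background was at 6.21%. Summits moved by -21 to 27 bp. The lost members were the first region and the last 2, with DMSO folds of 3.46, 6.47 and 5.29, so the kept ones formed an unbroken block. In DMSO, the MBD2 list had 12 of the 12 regions and those of MBD3 and TET1 had 11 each. Under BPK25 the TET1 list had 7, that of MBD3 4 and that of MBD2 none. In neither run did a region overlap the IAA CTCF list.

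**Figure D3:**
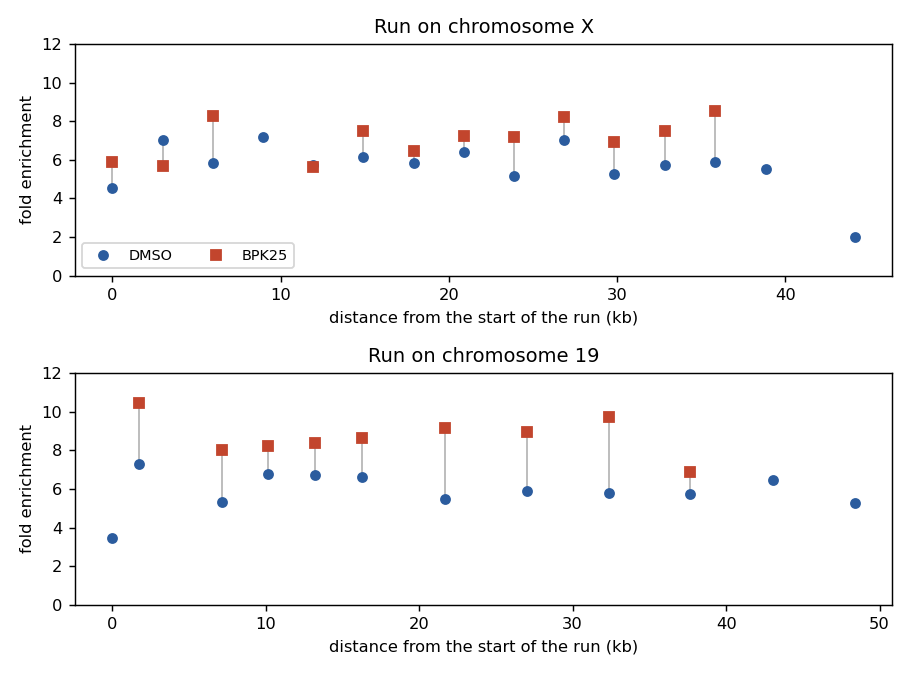
Fold enrichment of each CTCF region in the runs on chromosome X and chromosome 19, by distance from the start of the run in kb. Circles are DMSO regions and squares the BPK25 regions at the same place; a circle without a square was not listed under BPK25. Squares lie above circles at 10 of 12 kept regions on chromosome X and at 9 of 9 on chromosome 19.

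The DMSO regions that were kept were wide. Their median width was 373.5 bp, against 251 bp for lost regions. Caller sub-peaks sharing 1 region gave 2 or more summits at 53 of the 222 kept regions (23.9%, 18.7 to 29.9) and at 2.02% of the lost ones. The difference in width was also present on low background, at 353 bp (interval of the median 300 to 445) for kept and 250 bp (249 to 251) for lost regions. Outside chromosomes 1 to 22 and X, kept regions had a median of 307 bp and lost ones of 248 bp.

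Under BPK25 most of the kept regions were narrower than in DMSO. Over the 222 pairs of a DMSO and a BPK25 region, the median ratio of BPK25 to DMSO width was 0.838 (0.780 to 0.887), with quartiles of 0.616 and 1.00. The BPK25 region was narrower in 165 pairs and wider in 55, and in 120 pairs (54.1%) it lay wholly within the DMSO region. The median widths were 286 bp under BPK25 and 373.5 bp in DMSO. Pairs on chromosomes 1 to 22 and X had a ratio of 0.737 (0.667 to 0.786), and pairs on the other sequences one of 1.00 (0.961 to 1.03). The narrowing was thus seen on the main chromosomes, where the median BPK25 pileup of the pairs was 18.5 fragments, against 70 on the other sequences. The lists differ in depth, and the part of depth and pileup in the widths was not tested. In the 37 pairs with low background in both lists the ratio was 0.731 (0.657 to 0.825). No listed region was narrower than 195 bp in DMSO or 193 bp under BPK25.

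Summits hardly moved. The median absolute distance between the BPK25 and DMSO summits was 14.5 bp (12 to 19), with quartiles of 6 and 43.75 bp. The summits lay within 50 bp of each other in 171 of 222 pairs (77.0%, 71.1 to 82.1) and within 150 bp in 198 (89.2%, 84.4 to 92.6). In 217 pairs the BPK25 summit fell inside the DMSO region, which the choice of pairs by overlap favours. The signed shift had a median of -1.5 bp, and of 219 pairs with a shift, 104 moved towards higher coordinates (47.5%, 41.0 to 54.1). No side was thus preferred beyond counting error. Where both regions had 1 summit, 155 of 162 pairs were within 150 bp, and where either had more, 43 of 60 were. The low-background pairs, which rest on few BPK25 fragments, had a median distance of 33 bp (16 to 52).

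The 3 pairs with the farthest summits, among those with a −log10 q of 5 or more in both lists, had several summits in a region. On chromosome 17 from 22245557 to 22246332, a DMSO region with 3 summits had its BPK25 summit 600 bp to the left. On chromosome X from 58572381 to 58573701, regions with 4 summits in each list had their strongest summits 492 bp apart. On chromosome 5 from 10317 to 11644, near the chromosome end, a DMSO region with 3 summits had its BPK25 summit 436 bp to the right. These DMSO regions were 776, 1321 and 1328 bp wide, against a median of 373.5 bp for kept regions.

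**Figure D4:**
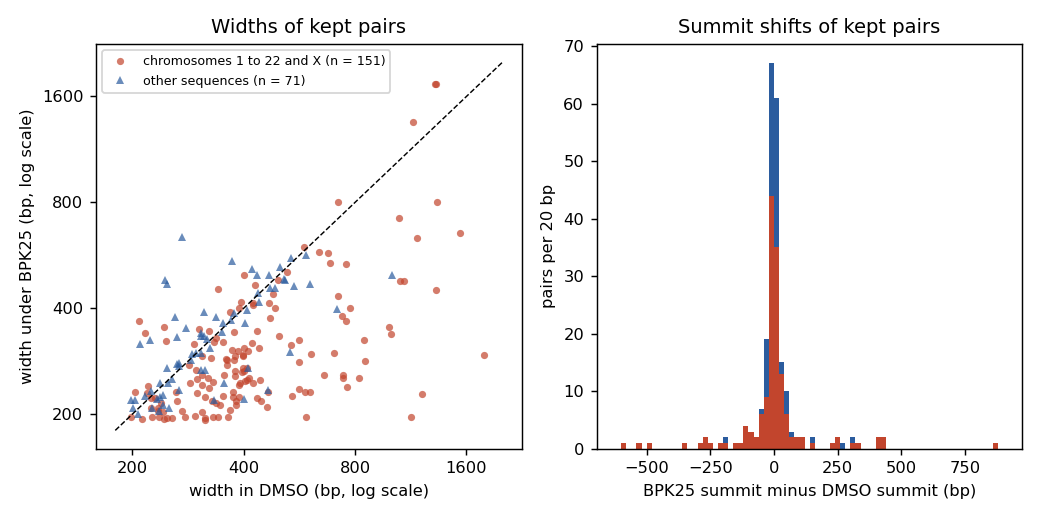
Left, width of the 222 kept pairs in DMSO and under BPK25 (bp, log scales), with a dashed line of equal width. Right, BPK25 summit minus DMSO summit in bp, stacked in bins of 20 bp with the same colours; most points on chromosomes 1 to 22 and X lie under the line, where the median ratio was 0.737, and the shifts gather around 0 with a median distance of 14.5 bp.

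Fragments at kept summits fell less than the floor did. Over the 205 pairs with recovered values, the BPK25 pileup had a median of 13.4% of the DMSO pileup (12.7 to 13.9) and the local background one of 7.31% (6.94 to 7.56). The fold was higher under BPK25 in 179 of 222 pairs, with a median ratio of 1.43 (1.33 to 1.50). These pairs had to pass the BPK25 threshold, and a region with few BPK25 fragments could not enter. Where the DMSO region would have passed at BPK25 depth, the 48 pairs had a median pileup ratio of 10.6% (8.40 to 12.0) and a fold ratio of 1.02 (0.769 to 1.24), with the fold higher under BPK25 in 25 of 48. Low-background pairs had 8 fragments under BPK25 and 49 in DMSO at the median.

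Single pairs differed in how their fold, with its added 1 in pileup and background, compared between the treatments. Among those of highest BPK25 fold, on chromosome 1 from 236876997 to 236878144, the fold was 12.4 under BPK25 and 2.92 in DMSO, with 26 and 100 fragments. The local background there was 1.18 under BPK25 and 33.6 in DMSO, and the summits lay 263 bp apart. On chromosome 7 from 302891 to 304064, the fold was 11.5 under BPK25 and 13.4 in DMSO. This DMSO region had 4 summits over 1174 bp and the BPK25 region 1 summit over 632 bp, 5 bp from the strongest DMSO summit. A second region on chromosome 7, from 23995 to 24462, went from a fold of 3.46 to one of 10.7 and overlapped a region in each of the 12 lists. The pair on chromosome 17 from 18966821 to 18967557 had a fold of 9.61 in DMSO and 10.8 under BPK25, and its neighbour from 18965078 to 18965796 had folds of 13.4 and 7.11. A member of the chromosome 19 run, from 50595785 to 50596195, had folds of 7.31 and 10.5.

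On low background, the strongest kept pair besides that on chromosome 7 lay on chromosome 9 from 998543 to 999029. Its fold was 15.4 in DMSO from 131 fragments and 9.45 under BPK25 from 11 fragments, with summits 15 bp apart. A region on chromosome 10 from 4857573 to 4858328 had folds of 12.5 and 9.44 from 114 and 12 fragments, with summits 14 bp apart. Both were listed for MBD2, MBD3 and TET1 in DMSO and under BPK25. The region on chromosome 1 from 226898954 to 226899262 had folds of 7.66 and 8.73 from 76 and 12 fragments and was listed for the other antibodies in DMSO but not under BPK25. The highest DMSO fold among kept pairs, 19.6, was on chromosome 16 from 60817 to 61224, where the BPK25 fold was 9.78 from 13 fragments.

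Some of the strongest DMSO regions were lost. Those named here on chromosomes 15, 9, 12 and 1 lay within 1 Mb of a chromosome end, and those on chromosomes 17 and X did not. The highest fold of the DMSO list, 24.96, was on chromosome 15 from 102519417 to 102520036, where TET1 but not CTCF was listed under BPK25. The second highest, 24.3, was on chromosome 9 from 11221 to 11614, where no BPK25 list had a region. A fold of 17.0 on chromosome 12 from 94049 to 94509 was lost for CTCF while MBD2 and TET1 were listed there under BPK25. On low background, the region on chromosome 1 from 11134 to 11698 had a fold of 19.4 from 129 fragments, which scale to 7.59 at BPK25 depth. A region on chromosome 17 from 39818906 to 39819245 had a fold of 15.3 from 152 fragments, and one on chromosome X from 10087482 to 10087922 a fold of 14.3 from 121. All 3 would have passed at BPK25 depth and were lost for CTCF. Their scaled pileups of 7.59, 8.95 and 7.12 fragments leave out counting noise. All 3 were listed for TET1 under BPK25, as were 3.84% of all DMSO CTCF regions, and the one on chromosome X for MBD2 and MBD3 too. The BPK25 TET1 list was deeper, with a floor of 1.16 fragments against 0.256 for CTCF.

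The 152 newly listed regions rested on few fragments. Their median −log10 q was 2.21, and 24 of them had a −log10 q of 5 or more (15.8%), against 148 of the 223 BPK25 regions at a DMSO region (66.4%). Their median fold was 4.78, against 4.28 for BPK25 regions at a DMSO region, of which 169 of 223 had a raised background. On low background of chromosomes 1 to 22 and X, the order was the other way. There the median fold was 4.78 for newly listed regions and 6.19 (5.65 to 6.54) for those at a DMSO region. On these chromosomes, 141 of 146 newly listed regions had a low background. A pileup of 5 fragments, the least that could be listed, was found at 69 of these 146 (47.3%, 39.3 to 55.3), and a pileup of 6 at 39 (26.7%). Of BPK25 regions at a DMSO region, 3 of 223 had 5 fragments (1.35%) and 11 had 6 (4.93%). Their median width was 230.5 bp, and none of 152 had 2 or more summits, which allows a share of up to 1.97%.

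**Figure D5:**
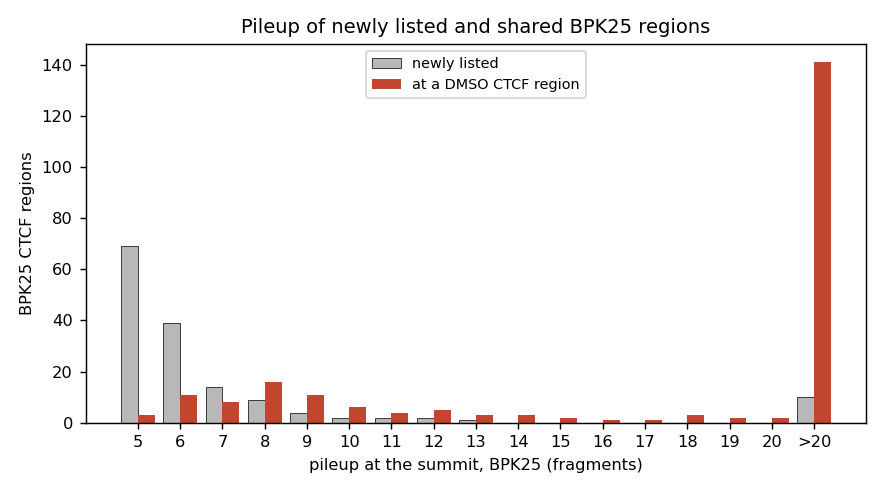
Number of BPK25 CTCF regions by the fragments piled up at their summit, for newly listed regions (grey) and regions at a DMSO CTCF region (red); the last class holds pileups above 20. Newly listed regions gather at 5 fragments (69 regions) and 6 fragments (39 regions), while 141 of the regions at a DMSO region are above 20.

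Newly listed regions were spread over the chromosomes, at varied distances from DMSO CTCF regions. Their median distance to the nearest one was 47.5 kb (36.5 to 76.6), with quartiles of 18.6 and 132.4 kb. Within 1 kb there were 6 of 146, within 10 kb 23 (15.8%, 10.7 to 22.5) and within 100 kb 98. For comparison, another DMSO CTCF region lay within 1 kb of 3.25% of lost DMSO regions, within 10 kb of 22.8% and within 100 kb of 79.1%. The newly listed shares were 4.11% within 1 kb and 67.1% within 100 kb. Distances of randomly placed regions were not computed. Of the 152, 134 (88.2%, 82.1 to 92.4) were in none of the 11 other lists. The newly listed region of highest fold lay on chromosome 13 from 114196280 to 114196623, with 13 fragments and the nearest DMSO CTCF region 20.2 kb away. The next was on chromosome 19 from 2938966 to 2939232, with 12 fragments and the nearest one 11.8 kb away. A fold of 8.86 was found on chromosome 10 from 98699804 to 98700079. The fold was 8.00 on chromosome 22, between 47027387 and 47027771, and 7.96 on chromosome 12, between 71957578 and 71958198. Among these 5, the one on chromosome 22 was also listed for MBD3 under BPK25 and the other 4 were in no other list.

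Of the 6 newly listed regions within 1 kb of a DMSO CTCF region on chromosomes 1 to 22 and X, 2 rested on 5 fragments over a low background. The nearest of all, on chromosome 19 from 39613156 to 39613391, was 1 of these, at 187 bp, with a fold of 4.33; it is named here after its values were seen. Among those with a −log10 q of 5 or more, the nearest, on chromosome 10 from 42537510 to 42537713, was 300 bp from a DMSO region. The next lay on chromosome 11, from 51588277 to 51588479, at 376 bp, and the third on chromosome X, from 58571591 to 58571796, at 584 bp. The pileups of these 3 were 43, 144 and 53 fragments over local backgrounds of 12.0, 44.2 and 17.6, with folds of 3.39, 3.21 and 2.90. Each was also listed for MBD3 under BPK25.

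Kept regions carried the other proteins of the series more often than lost ones. In DMSO, MBD2 was listed at 183 of 222 kept regions (82.4%, 76.9 to 86.9), where it was listed at 67.4% of all DMSO CTCF regions. MBD3 was listed at 195 (87.8%, 82.9 to 91.5) against 46.4% of all, and TET1 at 160 (72.1%, 65.8 to 77.6) against 33.9% of all. The 47 kept regions of low background on chromosomes 1 to 22 and X gave like shares of 85.1%, 78.7% and 74.5%, where the lost ones of low background gave 66.3%, 44.7% and 32.5%. The difference was thus present on low background too. Kept regions there were also stronger and wider, with medians of 50 fragments and 353 bp against 37 fragments and 250 bp for lost ones. The part of strength and width in these overlaps was not tested.

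Under BPK25 the overlap with other antibodies differed between the BPK25 regions at a DMSO region and the newly listed ones. Their median pileups were 35 and 6 fragments, and the part of strength in these overlaps was not tested. MBD3 was listed at 133 of the 223 BPK25 CTCF regions that lay at a DMSO region (59.6%, 53.1 to 65.9) and at 11 of the 152 newly listed ones (7.24%, 4.09 to 12.5), where the share of all 375 was 38.4%. For MBD2 the counts were 88 (39.5%) and 6 (3.95%), against 25.1% of all, and for TET1 75 (33.6%) and 1 (0.658%), against 20.3% of all. On low background the shares at a DMSO region were lower for MBD3, with 10 of 53 (18.9%, 10.6 to 31.4), and for MBD2, with 13 (24.5%, 14.9 to 37.6). TET1 had 19 there (35.8%, 24.3 to 49.3). Newly listed regions of low background had MBD3 at 3 of 141 and MBD2 at 3. TET1 was at 0 of the 141, which allows a share of up to 2.13%. The CTCF list of cells given IAA overlapped 79 of the 223 (35.4%) and 4 of the 152 (2.63%), with 22.1% of all, and on low background 4 of the 53. The labels name 1 set of input libraries per treatment, so the lists of a treatment may share their control, and its part in these overlaps was not tested.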

How the data were processed

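Chromatin from HEK293T cells was immunoprecipitated with a CTCF antibody, and fragments of 200 to 500 bp were selected, per the labels' protocols. Per the submitters' processing notes, the build was hg19 and the tools included MACS2 2.1.2 and Bowtie2 2.3.4; no source used here states the caller's settings. The authors deposited 1 list per treatment and antibody, called on replicates 1 to 3 together. The deposited lists hold a score, a fold enrichment (a linear ratio), −log10 p and −log10 q values, and a summit offset. The depth of single libraries is unknown.

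Sub-peaks with the same start and end were joined to 1 region, taking the sub-peak of highest −log10 p. Pairs were formed by longest overlap. Pileup and local background were recovered from fold, read as pileup plus 1 over background plus 1, and −log10 p, read as a Poisson upper tail; all solved regions fitted within 0.02%, and no solution was sought where −log10 p exceeded 150. Shares carry 95% Wilson intervals and medians binomial order-statistic intervals. Regions were named if on chromosomes 1 to 22 or X, with a −log10 q of 5 or more, and among the 5 kept pairs of highest BPK25 fold, the 5 of highest BPK25 fold on low background in both lists, the 5 kept of highest DMSO fold, the 5 lost and 5 newly listed of highest fold, the 3 pairs of farthest summits, the 3 newly listed regions nearest to DMSO regions and the 3 lost ones of highest fold on low background. The runs, the widest stretch without a region and the members named in the runs on chromosomes X and 19 were chosen after values were seen. Members, lists and rules were chosen with earlier results of these data known. The scripts were tested on simulated data. Gene names, motifs and sequences were not used here, since coordinates are hg19 and the tables at hand are of another build. Python 3.11.15, numpy 2.4.6, pandas 2.3.3, SciPy 1.17.1 and matplotlib 3.10.9 were used.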

Additional observations from a re-analysis of the deposited data

How the results depend on the processing

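The choices were varied in 11 ways, 2 of them chosen after seeing the data, and 47 of 84 values stayed within the 95% interval of the value reported. The kept share of DMSO CTCF regions was 0.978% with a −log10 q of 5 or more in both lists, 1.04% with a fold of 5 or more, 0.875% on chromosomes 1 to 22 and X, 0.237% on low background in both lists and 0.914% without runs. It was 27.5% with the DMSO list shortened to the BPK25 length by highest −log10 q, 34.3% for DMSO regions that would pass at BPK25 depth and 23.1% with rounding up. The share of BPK25 regions at a DMSO region was 85.5% with the q limit, 37.0% with the fold limit, 51.0% on chromosomes 1 to 22 and X, 52.8% with summits within 150 bp, 19.1% on low background, 27.5% with the shortened DMSO list and 51.5% without runs. The width ratio was 0.909 with the q limit, 0.640 with the fold limit, 0.737 on chromosomes 1 to 22 and X, 0.775 with regions under 500 bp apart merged and 0.731 on low background, under 1 in each. The summit distance was 11 bp with the q limit and 33 bp on low background. Newly listed regions lay 18.5 kb from a DMSO region with the q limit, which left 19 of them, and 131.4 kb with the fold limit.

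A neighbour within 10 kb was found for 75.6% of kept and 20.2% of lost regions with the q limit, and for 52.6% and 7.23% with the fold limit. On low background the shares were 21.6% and 19.9%, and without runs 40.7% and 21.9%; merging gave 21.7% of lost regions. Near a chromosome end lay 18.9% of kept regions on low background, 15.1% without runs, and 2.25% of lost and 11.7% of newly listed regions with the fold limit. The cause of these changes was not tested, and each filter also changes which regions enter. Requiring an overlap of 50% of the shorter region moved no value out of its interval.

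No paired analysis was possible because each list pools replicates 1 to 3, and leaving out a replicate could not be run for the same reason. Depth limits the BPK25 list, whose weakest summits rest on 5 fragments. The gene lists and the motif planned at the start were not run, since no hg19 reference was used here.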
